A study of Rattus norvegicus with 4 samples.

Results

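Semaphorins, plexins and neuropilins were described across the cell classes of rat limb and eye muscle. The members were all genes in the deposited feature tables whose symbols have the form Sema3 to Sema7 with a letter, Plxna to Plxnd with a number, or Nrp1 and Nrp2. This rule used names only and no measured value, and it found 31 of the 25399 genes: 20 semaphorins, 9 plexins and 2 neuropilins. The study made 4 single-cell RNA libraries from rats aged 12 months, 1 from each of TA (tibialis anterior, a limb muscle) and EOM (extraocular muscles) in each of 2 disease states, WT (wild-type) and DMD (Duchenne muscular dystrophy, the loss of dystrophin). Neither the strain nor the altered allele of the DMD rats, nor how many animals gave each library, is given in the labels, and no treatment was applied to any group. Cells were all those released by enzymatic digestion of the muscle, and droplets do not hold whole myofibres. In all 4 samples the title and the disease state field name opposite states. The libraries are called TA-WT, TA-DMD, EOM-WT and EOM-DMD here after the disease state field, so every direction between WT and DMD rests on that field, while the comparison between muscles in a fit over all libraries does not.

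Semaphorins are secreted or membrane-bound guidance cues, and plexins are the receptors that carry their signal into the cell. Most secreted class 3 semaphorins bind a neuropilin, NRP1 or NRP2, which pairs with a plexin of the A family or with PLXND1; SEMA3E can bind PLXND1 directly. Classes 4 to 7 are mostly tethered to the membrane, with class 4 acting largely through B plexins, class 6 through A plexins and SEMA7A through PLXNC1 and integrins. In vessels, neuropilins also serve as co-receptors for vascular endothelial growth factors (VEGFs), and in muscle semaphorins are known from motor nerve endings and from satellite cells, the muscle stem cells.

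RefSeq promoter sequences, 250 bases before to 50 after the annotated start in build GRCr8, were at hand for 23 of the 31 members. The promoters below belong to 3 receptors, Nrp1, Plxnd1 and Plxna2, whose level in endothelial-like cells was lower in the DMD-labelled library of both muscles. Capitals mark AGGAAG, a core of ETS-type sites, and GGGCGG, a core of SP/KLF-type sites, on either strand. The 2 motifs can share a base. Nrp1 (chr19:73256307-73256606, plus strand) held neither, Plxnd1 (chr4:150715138-150715437, minus strand) held 1 AGGAAG and 3 GGGCGG, and Plxna2 (chr13:108691280-108691579, plus strand) held 2 GGGCGG.
Nrp1: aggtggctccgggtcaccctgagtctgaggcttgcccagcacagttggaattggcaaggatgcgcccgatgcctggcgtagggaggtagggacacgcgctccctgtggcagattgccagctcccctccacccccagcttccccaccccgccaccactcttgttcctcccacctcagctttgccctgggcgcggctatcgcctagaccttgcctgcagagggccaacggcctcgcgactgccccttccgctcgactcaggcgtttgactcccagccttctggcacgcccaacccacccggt
Plxnd1: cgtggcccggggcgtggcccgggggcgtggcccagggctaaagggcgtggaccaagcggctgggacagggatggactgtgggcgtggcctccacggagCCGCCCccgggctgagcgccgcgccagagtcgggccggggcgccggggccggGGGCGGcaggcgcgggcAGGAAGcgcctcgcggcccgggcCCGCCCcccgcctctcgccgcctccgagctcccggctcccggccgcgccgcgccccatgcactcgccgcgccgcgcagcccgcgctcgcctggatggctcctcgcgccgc
Plxna2: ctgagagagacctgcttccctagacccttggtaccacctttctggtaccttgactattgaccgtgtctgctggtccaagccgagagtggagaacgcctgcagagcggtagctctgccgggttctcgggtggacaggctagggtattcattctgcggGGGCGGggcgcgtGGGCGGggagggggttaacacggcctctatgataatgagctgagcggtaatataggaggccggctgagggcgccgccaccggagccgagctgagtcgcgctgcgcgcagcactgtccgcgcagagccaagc

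AGGAAG was in 9 of the 23 members' promoters (39.1%) and in 34.5% of 33469 rat promoters, and GGGCGG was in 13 (56.5%) and in 33.1%. Among the 7 endothelial-highest members with a promoter sequence, 2 held AGGAAG and 3 held GGGCGG. The members' median GC content was 61%, against 51.7% over all promoters. These are letter matches in a fixed window of another build than that of the counts, and the data do not bear on binding.

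The libraries labelled WT and DMD held 2083 and 7964 analysed cells in TA and 1249 and 2261 in EOM. Their median UMI counts (unique molecular identifiers, or counted molecules) per cell were 2482, 1221.5, 3654 and 4486. Values are CPM, the UMIs of a gene per 1000000 UMIs of all cells of a class in a library. Intervals in parentheses are 95% exact Poisson intervals that cover counting error only, not animals or digestions. Classes are called "X-like" after marker genes in clusters that were built without the 31 members. Each named cluster had at least 3 markers of its class, and 1 of the 33 clusters stayed unnamed. The TA-DMD library stands apart: it is the shallowest, and RNA of endothelial cells was found in its other classes. Capillary markers summed to 2589 CPM in its satellite-like cells and to 49 to 117 CPM in those of the other libraries. In its FAP/fibroblast-like cells (fibro-adipogenic progenitors and fibroblasts) they summed to 2402 CPM, against 149 and 161 CPM in EOM. Endothelial RNA was not limited to TA-DMD. Cdh5, an endothelial gene, was at 184 CPM in myofibre-like cells of TA-WT and 93.9 CPM in mural-like cells of EOM-DMD. In all, 20 of the 13557 analysed cells carried a barcode found in another library.

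Of the 31 members, 15 reached a mean of 100 CPM over libraries in at least 1 class with 30 or more cells, 10 reached 20 to 100 CPM and 6 (Plxna3, Plxnb1, Sema4f, Sema4g, Sema5b and Sema6c) stayed under 20 CPM in every class. Endothelial, mural (pericyte and smooth muscle), satellite and myofibre-like cells had 30 cells or more in every library. Over these 4 classes, 15 members passed a mean of 20 CPM in at least 1. For 14 of these 15 the class with the highest level was the same in all 4 libraries, against 3744 of 7769 genes (48.2%). It was the endothelial-like class for Nrp1, Nrp2, Plxna2, Plxnd1, Sema3f, Sema6a, Sema6b and Sema7a, 8 of 15, against 18.9% of all genes passing. It was the mural-like class for Plxna1, Sema5a and Sema6d, the satellite-like class for Plxnb2 and Sema3d, and the myofibre-like class for Sema4d. Sema4c was the exception, with the endothelial-like class highest in both WT-labelled libraries and the mural-like class in both DMD-labelled ones. Cells thinned to 1000 UMIs gave 11 of 14, against 2826 of 7992 genes. Of those 11 members, 9 were highest in the endothelial-like class, 2 in the mural-like class and 0 in the satellite-like or myofibre-like class. The satellite-like and myofibre-like results above were thus not kept at that depth.

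**Figure D1:**
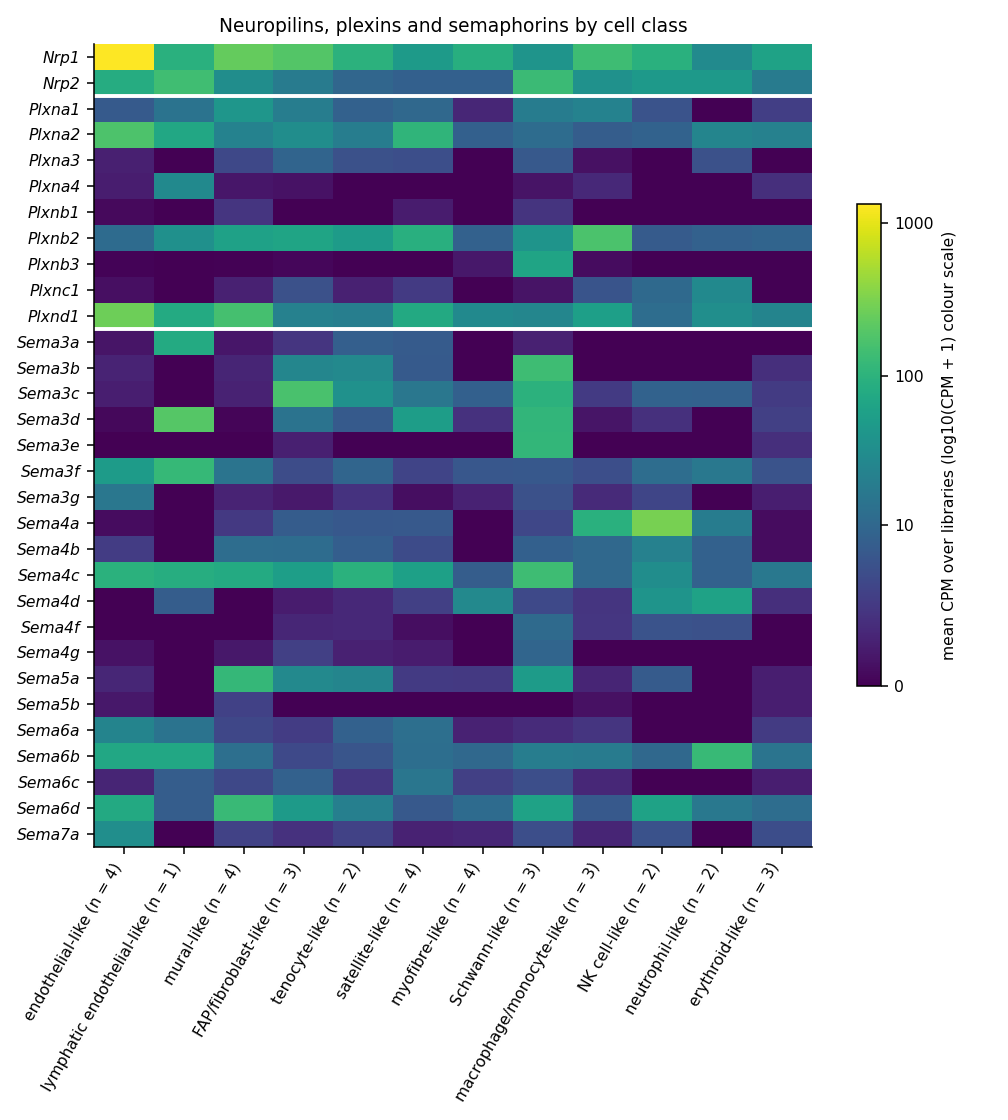
Mean CPM of each of the 31 members (rows: neuropilins, plexins, semaphorins) in 12 classes (columns), as colour on a log10(CPM + 1) scale; n is the number of libraries with at least 30 cells of that class. Nrp1, Plxnd1 and Plxna2 are brightest in endothelial-like cells, Sema3b and Sema3e in Schwann-like cells and Sema4a in NK cell-like cells.

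Nrp1, the neuropilin that binds class 3 semaphorins and VEGF-A, was highest in endothelial-like cells. There it stood at 1736 CPM (1694 to 1777) in TA-WT, 479 (463 to 495) in TA-DMD, 1949 (1877 to 2023) in EOM-WT and 1087 (1037 to 1138) in EOM-DMD. Both DMD-labelled libraries lay below both WT-labelled ones. Such an order among 4 libraries is not a test, here or below, and the share of all genes with it is not given. The level was 3.62-fold lower (3.48 to 3.78) in TA and 1.79-fold lower (1.69 to 1.91) in EOM. Over the 4 libraries the label term of the edgeR quasi-likelihood fit was -1.24 ± 0.31 (log2, SE, 2 libraries a label) with an adjusted p of 0.146, which missed the threshold of 0.05. DESeq2 called it (adjusted p = 0.0134), as did edgeR without the filter on low counts (adjusted p = 0.00484). With the label as sole term, log2 was -1.80 without the EOM-DMD library and -0.68 without the TA-DMD library. Each of those 2 fits leaves 1 DMD-labelled library and is not adjusted for muscle.

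The kinds of endothelial cell differed between libraries. Venous endothelial-like cells reached 30 cells in TA-DMD alone, and their Nrp1 level there was 128 CPM, the lowest of the blood endothelial groups. In capillary endothelial-like cells alone, Nrp1 was at 1926 and 716 CPM in TA and at 2160 and 1199 CPM in EOM, WT label before DMD label. In arterial endothelial-like cells it was at 952 and 598 CPM in TA and at 1222 and 1059 CPM in EOM. The DMD-labelled library was thus the lower one of each pair in capillary and in arterial cells. In each of the 3 capillary clusters both DMD-labelled libraries also lay below both WT-labelled ones. Fits within those clusters gave label terms of -0.95 (adjusted p = 0.103), -1.15 (adjusted p = 0.132) and -0.89 (adjusted p = 0.063) by edgeR, none past the threshold.

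In mural-like cells, which line the outside of small vessels, Nrp1 was at 242 CPM (209 to 278), 226 (213 to 241), 227 (183 to 277) and 254 (220 to 291) in TA-WT, TA-DMD, EOM-WT and EOM-DMD. These intervals overlap throughout, and the label term was 0.17 ± 0.22 (adjusted p = 0.733, edgeR). Whether the label term differs between endothelial-like and mural-like cells was not tested. Macrophage/monocyte-like cells held 146, 167 and 108 CPM in the 3 libraries with enough cells (TA-DMD, then EOM-WT and DMD), and FAP/fibroblast-like cells 311, 151 and 107 CPM. Most FAP/fibroblast-like cells of TA-DMD (1117 of 1381) sat in a shallow cluster that held 4 or fewer cells of each other library.

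In satellite-like cells Nrp1 was at 9.02 CPM (3 UMIs) in TA-WT, 167 CPM (129 UMIs) in TA-DMD, 10.5 CPM in EOM-WT and 7.23 CPM in EOM-DMD. The TA ratio was 18.5 (6.19 to 90.9). The high value moves with endothelial genes: in the same cells of TA-DMD, Cdh5 was at 106 CPM and Fabp4 at 1917 CPM, against 0 and 66.1 CPM in TA-WT. A like rise over EOM-DMD was seen in NK cell-like (184 against 3.66 CPM), tenocyte-like (192 against 5.25 CPM) and Schwann-like cells (97.9 against 11.1 CPM). The part of endothelial RNA in these values was not tested.

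**Figure D2:**
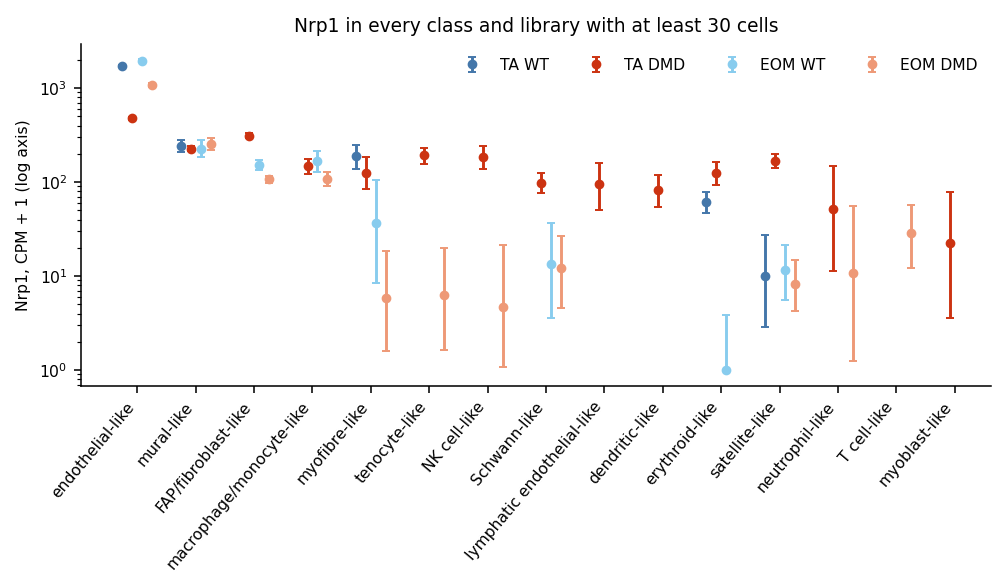
Nrp1 level (CPM + 1, log axis) in each class, 1 point for each library with at least 30 cells, with 95% Poisson intervals. Endothelial-like cells lie highest in every library, mural-like values lie between 226 and 254 CPM, and TA-DMD lies above EOM-DMD in the tenocyte-like, NK cell-like, Schwann-like and satellite-like classes.

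Nrp2, the second neuropilin, was spread over vessels, lymphatics and nerve. In endothelial-like cells it was at 103, 88.3, 88.5 and 61.2 CPM in TA-WT, TA-DMD, EOM-WT and EOM-DMD, with no called term. It was lower in arterial than in capillary endothelial-like cells in every library (27.4 against 118, 31.4 against 102, 25.8 against 101 and 31.4 against 73 CPM, in that order of libraries). Lymphatic endothelial-like cells, with enough cells in TA-DMD only, held 145 CPM, and Schwann-like cells, which ensheathe nerve fibres, 151, 82.5 and 162 CPM in TA-DMD, EOM-WT and EOM-DMD. Within TA-DMD the level was 201 CPM in myelinating and 91.8 CPM in non-myelinating Schwann-like cells.

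Among the plexins, Plxnd1, the plexin of endothelial cells and a receptor of SEMA3E, stood at 347 CPM (329 to 366) in TA-WT, 177 (167 to 187) in TA-DMD, 358 (328 to 391) in EOM-WT and 197 (176 to 220) in EOM-DMD in endothelial-like cells. The groups by label did not overlap, which is not a test. The ratio was close in both muscles, 1.96-fold lower (1.82 to 2.12) in TA and 1.82-fold lower (1.58 to 2.10) in EOM. The label term was -0.81 ± 0.16 (adjusted p = 0.0945, edgeR) and was not called. In 1 of the 3 capillary clusters it was: 381 and 181 CPM in TA and 366 and 157 CPM in EOM, WT label first, with a label term of -1.10 ± 0.20 (adjusted p = 0.000896, edgeR). The other capillary clusters gave -0.78 (adjusted p = 0.124) and -0.91 (adjusted p = 0.204), and the arterial cluster -0.29 (adjusted p = 0.69). In mural-like cells Plxnd1 was at 158, 127, 166 and 176 CPM in TA-WT, TA-DMD, EOM-WT and EOM-DMD, with a label term of 0.01 ± 0.22. General endothelial genes differed by label in endothelial-like cells too. In the same order of libraries, Cdh5 was at 1676, 902, 1576 and 1079 CPM and Egfl7 at 1456, 799, 1611 and 1323 CPM. The capillary marker Fabp4 was at 17218, 15193, 14038 and 18555 CPM, higher with the DMD label in EOM. How far such shifts enter the Nrp1, Plxnd1 and Plxna2 values was not tested.

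Plxna2, an A plexin that binds class 6 semaphorins and pairs with neuropilins, was at 187, 119, 223 and 174 CPM in endothelial-like cells in that order of libraries. It was lower in the DMD-labelled library of each muscle (1.57-fold, 1.42 to 1.73, and 1.28-fold, 1.09 to 1.51), with a label term of -0.40 ± 0.16 (adjusted p = 0.273, edgeR). That order held in capillary cells (204 and 143 CPM in TA, 229 and 165 CPM in EOM, WT label first) but not in arterial cells, where the DMD-labelled value was the higher one (114 and 156 CPM, 210 and 225 CPM). In satellite-like cells it was at 159 CPM (119 to 208) in TA-WT, 76.3 (58.1 to 98.5) in TA-DMD, 134 (109 to 163) in EOM-WT and 61.8 (48.8 to 77.3) in EOM-DMD. Here too both DMD-labelled libraries lay below both WT-labelled ones, 2.09-fold (1.41 to 3.08) in TA and 2.17-fold (1.59 to 2.95) in EOM. The term was -0.96 ± 0.19 with an unadjusted p of 0.005 and an adjusted p of 0.415 (edgeR), so it was not called. Most satellite-like cells of TA-DMD sat in a shallow cluster of their own. In the cluster that all 4 libraries share, the values were 163, 72.7, 135 and 61.1 CPM.

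Of the remaining plexins, Plxnb2, a receptor of class 4 semaphorins, was at 165, 172 and 177 CPM in macrophage/monocyte-like cells of TA-DMD, EOM-WT and EOM-DMD, values whose intervals overlap. In satellite-like cells it was at 78.1, 66.0, 133 and 91.5 CPM over the 4 libraries, higher in EOM than in TA for both labels, with a muscle term of 0.76 ± 0.20 (adjusted p = 0.32, edgeR). Plxnb3 was all but limited to Schwann-like cells among the classes measured, at 34.6, 78.4 and 82.1 CPM, with a mean of at most 3.94 CPM elsewhere. Plxna1, an A plexin and partner of neuropilins, was at 53.9, 35.3, 43.4 and 39.3 CPM in mural-like cells, and Plxnc1, the receptor of SEMA7A, was at 58.6 CPM (6 UMIs) in neutrophil-like cells of EOM-DMD and 0 in those of TA-DMD. Plxna4 was highest in lymphatic endothelial-like cells, at 28.9 CPM from 4 UMIs.

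**Figure D3:**
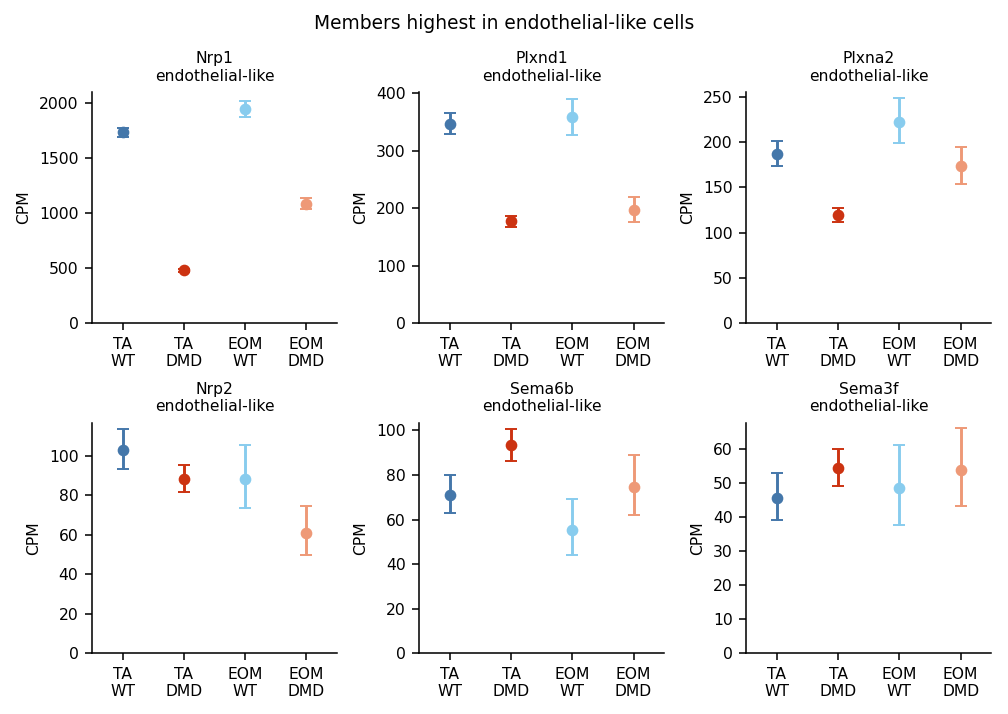
CPM of 6 members in endothelial-like cells, 1 point a library with its 95% Poisson interval; each axis starts at 0. For Nrp1 and Plxnd1 both DMD-labelled libraries lie below both WT-labelled ones, and for Sema6b both lie above.

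Fits over the 4 libraries called no member in endothelial-like cells. The muscle term was called for 0 of the 10 members tested (0 at an unadjusted p under 0.05, and 0 by DESeq2) and for 0.119% of 5904 genes. The label term was called for 0 of 10 (4 at an unadjusted p under 0.05, and Nrp1 by DESeq2) and for 0.728% of genes. Both percentages are edgeR calls at an adjusted p under 0.05. No share of genes is given for the unadjusted p or for DESeq2, so those member counts have no background here. At 2-fold or more on the log2(CPM + 10) scale, 1 of 10 members differed between TA-DMD and TA-WT (6.59% of genes), 0 of 10 between the EOM libraries (2.02%), 0 of 10 between EOM-WT and TA-WT (1.05%) and 1 of 10 between EOM-DMD and TA-DMD (4.03%). Nrp1 was the member in both. Sema6b, a membrane semaphorin that acts through A plexins, went the other way from the receptors, at 70.9 and 93.3 CPM in TA and 55.5 and 74.6 CPM in EOM, WT label first. It was 1.31-fold higher (1.14 to 1.52) and 1.35-fold higher (1.01 to 1.81), with a label term of 0.52 ± 0.16 (adjusted p = 0.201, edgeR). Sema3f, a secreted ligand of NRP2, was at 45.8, 54.5, 48.4 and 53.8 CPM over the 4 libraries, with overlapping intervals and no called term. Sema6d was at 99.5 and 48.8 CPM in TA and at 77.2 and 83.2 CPM in EOM, WT label first, that is, 2.04-fold lower (1.76 to 2.36) with the DMD label in TA. In capillary endothelial-like cells alone, Sema6d was at 99.1 and 56.5 CPM in TA and at 74.4 and 83.8 CPM in EOM.

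Sema3g, a class 3 ligand known from arteries, was at 60.7, 56.0, 40.6 and 26.2 CPM in arterial endothelial-like cells of TA-WT, TA-DMD, EOM-WT and EOM-DMD. Capillary cells held 10.8, 13.4, 9.74 and 11.7 CPM, so the arterial cells were higher in every library. In arterial cells the TA libraries lay above the EOM libraries, but the muscle term within that cluster was -0.86 (adjusted p = 0.37, edgeR), and the EOM values rest on 11 and 10 UMIs. Sema7a was at 40.9, 22.5, 30.2 and 42.2 CPM and Sema6a at 27.5, 20.2, 20.4 and 29.4 CPM in endothelial-like cells, neither with a called term.

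In the edgeR fits over whole classes, the 2 members called by label were both in mural-like cells. Sema5a, a membrane semaphorin with thrombospondin repeats, was at 167 CPM (140 to 197) in TA-WT, 57.4 (50.6 to 64.9) in TA-DMD, 147 (112 to 189) in EOM-WT and 107 (85.0 to 132) in EOM-DMD. Both DMD-labelled libraries were lower, and the label term was -0.93 ± 0.22 (adjusted p = 0.000498, edgeR). The TA difference was 2.90-fold (2.33 to 3.59), while that in EOM, 1.38-fold (0.976 to 1.94), has a counting interval that includes 1. The call was lost by DESeq2 (adjusted p = 0.416). It was also lost without TA-DMD (log2 -0.44), TA-WT (-0.78) or EOM-WT (-0.92). Those fits had the label as sole term and 1 library on a side. Cspg4, which encodes a pericyte proteoglycan, fell as well (-1.66 ± 0.22, adjusted p = 4.72e-12, edgeR), at 304, 63.5, 395 and 161 CPM. Many mural-like cells of TA-DMD sat in a shallow cluster of their own that carried endothelial genes. In the pericyte-like cluster that all libraries share, Sema5a was at 214, 88.7, 179 and 122 CPM, with a label term of -0.85 ± 0.23 (adjusted p = 0.0541, edgeR), and Cspg4 at 435, 178, 533 and 282 CPM.

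Plxna2 rose in the DMD-labelled mural-like cells: 8.77 CPM (3.53 to 18.1) in TA-WT, 34.2 (29.0 to 40.1) in TA-DMD, 9.64 (2.63 to 24.7) in EOM-WT and 39.3 (26.7 to 55.8) in EOM-DMD. The label term was 2.13 ± 0.43 (adjusted p = 2.11e-05, edgeR), a call lost by DESeq2 (adjusted p = 0.125). The call was also lost without TA-WT and without EOM-WT, in fits with the label as sole term and 1 WT-labelled library. Within the class, smooth muscle-like cells held 21.9 CPM in TA-WT and 22.2 CPM in TA-DMD, with overlapping intervals. Pericyte-like cells held 0 and 40.5 CPM in TA and 0 and 44.2 CPM in EOM, WT label first. The last value came from 21 UMIs in 8 cells. In the whole class the DMD-labelled values stood above the WT-labelled ones in both muscles. Endothelial markers moved with it: capillary markers summed to 3206, 9517, 916 and 3296 CPM in these cells, and all 7 pan-endothelial markers were found in each library but EOM-WT, where 1 was. In the shared pericyte-like cluster Plxna2 was at 0, 1.99, 0 and 5.69 CPM, that is, at or near 0 in every library, too low for the fit.

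The label fit in mural-like cells thus called 1 of 9 members higher and 1 lower, against 15.4% of 5979 genes in either direction. Of the 9, 4 had an unadjusted p under 0.05, and DESeq2 called 0. The 15.4% covers edgeR calls at an adjusted p, and no share of genes is given for the unadjusted p or DESeq2. The muscle term called 0 of 9 (0 at an unadjusted p under 0.05, and 0 by DESeq2), against 5.39% of genes. At 2-fold, the counts were 2 of 9 between the TA libraries (8.65% of genes), 1 of 9 between the EOM libraries (5.99%), 0 of 8 between EOM-WT and TA-WT (2.69%) and 0 of 10 between EOM-DMD and TA-DMD (4.1%). Sema6d, a class 6 ligand, was at 138, 101, 140 and 143 CPM in mural-like cells, and pericyte-like cells held more than smooth muscle-like cells in each of the 3 libraries with both (198 against 47.0, 123 against 58.7 and 185 against 79.7 CPM). Sema4c, a ligand of PLXNB2, was at 65.2, 75.8, 65.1 and 112 CPM, with a label term of 0.59 ± 0.23 (adjusted p = 0.064, edgeR).

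**Figure D4:**
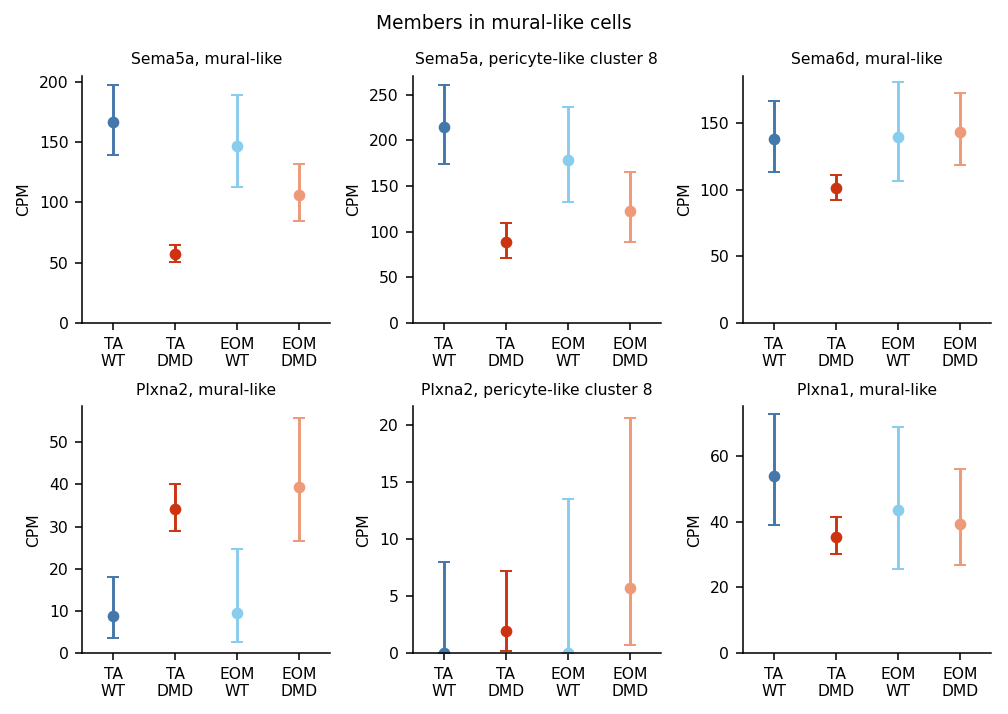
CPM of Sema5a, Sema6d, Plxna2 and Plxna1 in mural-like cells, and of Sema5a and Plxna2 in the pericyte-like cluster shared by all libraries, with 95% Poisson intervals. Sema5a is lower in both DMD-labelled libraries in both views, while the higher Plxna2 of mural-like cells is at most 5.69 CPM in the shared cluster.

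In satellite-like cells Sema3d, a secreted class 3 ligand, separated the muscles. It was at 9.02 CPM (1.86 to 26.3) in TA-WT, 23.3 (13.8 to 36.8) in TA-DMD, 105 (83.3 to 131) in EOM-WT and 76.3 (61.7 to 93.2) in EOM-DMD, from 3, 18, 80 and 95 UMIs. Both EOM libraries lay above both TA libraries, 11.6-fold (3.85 to 57.7) with the WT label and 3.27-fold (1.97 to 5.76) with the DMD label. In the cluster shared by all libraries the values were 9.23, 36.3, 106 and 80.6 CPM. The muscle term was 2.41 ± 0.43 (unadjusted p = 0.0034, adjusted p = 0.277, edgeR) and was not called. It was called in cells of 1000 UMIs or more whose mitochondrial share was 10% or less (2.05, adjusted p = 0.00848). With muscle as sole term, log2 was 3.49 without TA-DMD and 2.04 without TA-WT. Each of those fits leaves only the other TA library on its side, so no call is drawn from them. The values without EOM-WT or without EOM-DMD are not given here.

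Neither term was called for any of the 6 members tested in satellite-like cells by edgeR, nor for any of 5758 genes (0% for muscle and 0% for label). For muscle 4 of the 6 and for label 1 of the 6 had an unadjusted p under 0.05, and DESeq2 called 0 of the members for either. Of all genes, 703 and 522 had an unadjusted p under 0.05, and DESeq2 called 22 and 16. At 2-fold, 1 of 5 members differed between the TA libraries (9.94% of genes), 1 of 6 between the EOM libraries (2.85%), 1 of 6 between EOM-WT and TA-WT (4.74%) and 3 of 7 between EOM-DMD and TA-DMD (8.48%). Sema4c was at 48.1, 33.6, 56.4 and 92.3 CPM, 2.74-fold higher (1.78 to 4.38) in EOM-DMD than in TA-DMD. Pax7, the defining satellite cell gene, was at 352, 314, 261 and 286 CPM in these cells.

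Myofibre-like profiles gave 2 of 3 members lower in EOM (13% of 3522 genes called in either direction), while DESeq2 called 0. Nrp1 was at 188, 126, 35.7 and 4.81 CPM (muscle term -3.65 ± 0.73, adjusted p = 1.88e-05, edgeR) and Plxnd1 at 66.6, 46.5, 0 and 2.40 CPM (-4.47 ± 1.13, adjusted p = 0.00112, edgeR). Each value rests on at most 48 UMIs. Endothelial genes moved with them: capillary markers summed to 3437 and 5461 CPM in TA and to 143 and 40.9 CPM in EOM, and Flt1 and Kdr, both VEGF receptors of endothelial cells, fell too (-5.04 and -2.77). Their part in the result was not tested. With either EOM library left out neither member was called, in fits with muscle as sole term and 1 EOM library. The label term was called for 0 of 3 members (0 at an unadjusted p under 0.05, and 0 by DESeq2) and for 1.48% of genes.

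Among the class 3 ligands, Sema3c was highest in FAP/fibroblast-like cells, at 89.1 CPM in TA-DMD, 153 in EOM-WT and 250 in EOM-DMD, while TA-WT held 9 such cells, too few to use. The level was 2.81-fold higher (2.46 to 3.22) in EOM than in TA with the DMD label and 1.64-fold higher (1.43 to 1.89) in EOM-DMD than in EOM-WT. These are single libraries, with no test. Sema3b was at 8.58, 50.9 and 19.1 CPM in the same cells, 2.66-fold lower (1.94 to 3.64) with the DMD label in EOM. Plxnd1 there was at 25.1, 32.4 and 10.1 CPM. In FAP/fibroblast-like cells 2 of 10 members were at 2-fold or more between the EOM libraries (1.3% of genes), both lower, and 3 of 8 between EOM-DMD and TA-DMD (5.55%). Of those 3, Nrp1 and Nrp2 were lower in EOM, where the capillary markers in these cells were lower too, and Sema3c was higher.

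In Schwann-like cells Sema3b, Sema3c, Sema3d and Sema3e were found. Sema3e, the ligand of PLXND1, was at 123 CPM (39 UMIs), 191 (39 UMIs) and 177 (55 UMIs) in non-myelinating Schwann-like cells of TA-DMD, EOM-WT and EOM-DMD. It had 0 UMIs in endothelial, mural, satellite and myofibre-like cells of all 4 libraries. In endothelial-like cells a count of 0 allows up to 0.416, 0.771, 2.11 and 1.84 CPM in TA-DMD, TA-WT, EOM-WT and EOM-DMD. Sema3d was at 123, 196 and 142 CPM in the same non-myelinating cells and Plxnb3 at 50.6, 83.3 and 96.6 CPM. Myelinating Schwann-like cells, with enough cells in TA-DMD only, held 5.28 CPM of Sema3e and of Sema3d (2 UMIs each), 21.1 CPM of Plxnb3 and 81.9 CPM of Sema5a. The last had 0 UMIs in the non-myelinating cells of all 3 libraries. Sema3b was at 74.9, 252 and 93.2 CPM over all Schwann-like cells and at 53.8, 68.6 and 58.0 CPM in the non-myelinating ones. In EOM-WT, 14 of the 61 Sema3b UMIs were in the 39 non-myelinating cells and the rest in the other 5. Sema3c was at 127, 61.9 and 109 CPM over all Schwann-like cells.

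At 2-fold or more, 1 of 11 members differed between the EOM libraries in Schwann-like cells (8.38% of genes) and 2 of 12 between EOM-DMD and TA-DMD (7.24%). Sema3b was the member in the first. In the second, Plxnb3 was 2.38-fold higher in EOM (1.38 to 4.15) and Nrp1 8.82-fold lower (3.60 to 28.0). TA-DMD held relatively more myelinating cells, 110 of its 278, than EOM-DMD, which held 14 of 75. Sema4c was spread over both kinds of Schwann-like cell, at 116 CPM in myelinating and 155 CPM in non-myelinating cells of TA-DMD.

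Lymphatic endothelial-like cells reached 30 cells only in TA-DMD (83 cells) and held Sema3d at 195 CPM (27 UMIs), Sema3f at 123 CPM (17 UMIs), Sema3a, a ligand of NRP1, at 79.6 CPM (11 UMIs) and Nrp2 at 145 CPM (20 UMIs). Sema3d had 0 UMIs in the blood endothelial-like cells of 3 libraries and 1 in the fourth. Among leukocytes, Sema4a, an immune semaphorin, was highest in NK cell-like cells, at 225 CPM (174 to 286) in TA-DMD and 377 (308 to 457) in EOM-DMD. It was at 46.5, 150 and 90.3 CPM in macrophage/monocyte-like cells of TA-DMD, EOM-WT and EOM-DMD. T cell-like cells, with enough cells in EOM-DMD only, held 122 CPM of Sema4a. Sema4d, the ligand of PLXNB1, was at 84.1 and 39.0 CPM in neutrophil-like cells of the DMD-labelled libraries (TA, then EOM) and at 47.7 and 33.0 CPM in NK cell-like cells. The neutrophil-like values rest on few UMIs, since 3 UMIs equal 50.5 CPM in TA-DMD and 29.3 CPM in EOM-DMD. Sema4d had 0 UMIs in endothelial-like and mural-like cells of every library. Sema6b was at 135 and 117 CPM in neutrophil-like cells, from 8 and 12 UMIs.

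**Figure D5:**
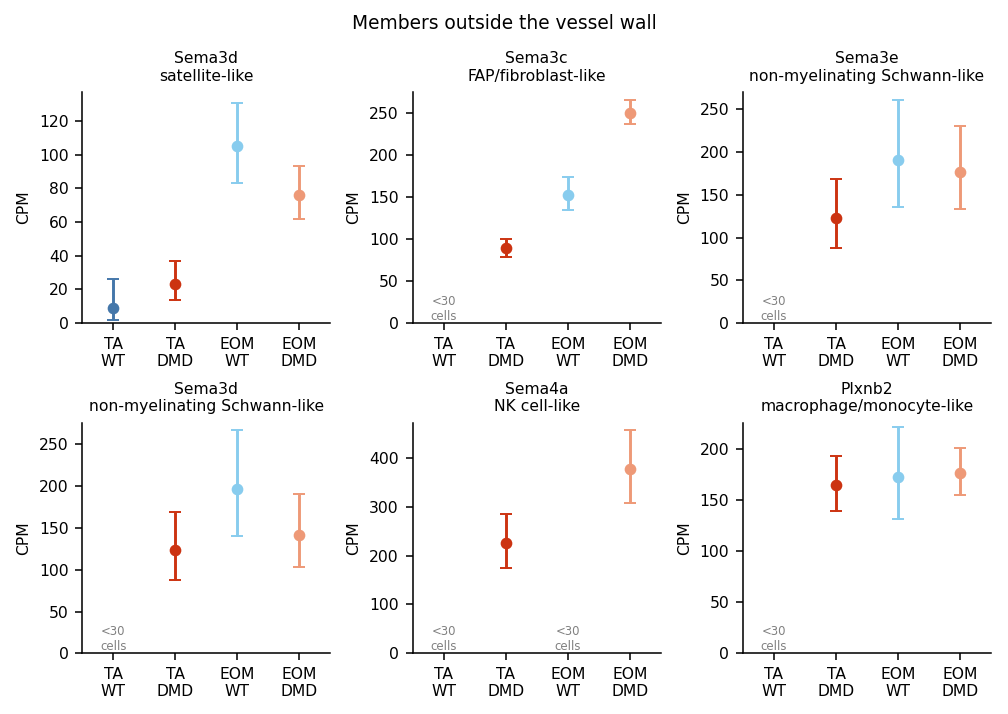
CPM of Sema3d, Sema3c, Sema3e, Sema4a and Plxnb2 in the classes named above each panel, with 95% Poisson intervals; libraries with under 30 cells of a class are marked. Sema3d in satellite-like cells is higher in both EOM libraries (105 and 76.3 CPM) than in both TA libraries (9.02 and 23.3 CPM).

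Over all classes with enough cells, pairs of a member and a class were counted at 2-fold or more. Between TA-DMD and TA-WT, 8 of 34 pairs were higher (17.2% of gene and class pairs) and 2 were lower (4.83%). Of the 8, 5 were in erythroid-like cells, where 94.5% of genes were higher. Without that class 3 of 28 were higher (7.09% of 21892 gene and class pairs) and 2 lower (5.2%). Between the EOM libraries 1 of 54 pairs was higher (2.67%) and 6 were lower (2.78%). Between EOM-WT and TA-WT 1 of 28 was higher (3.38%) and 3 were lower (4.39%), and between EOM-DMD and TA-DMD 7 of 79 were higher (4.71%) and 14 lower (10.2%). The 4 contrasts share libraries. Pairs at 2-fold in both disease contrasts in the same direction were Plxna2 in mural-like cells. In both muscle contrasts they were Sema3d in satellite-like and Nrp1 and Plxnd1 in myofibre-like cells. No pair was at 2-fold in opposite directions in the disease contrasts.

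The 56 other genes of the pathway fall into 3 lists: effectors inside the cell, co-receptors and other receptors, and VEGF ligands and receptors. In endothelial-like cells 0 of the 25 tested were called by muscle (7 at an unadjusted p under 0.05) or by label (6) with edgeR. For endothelial-like and myofibre-like cells no share of all genes at that unadjusted p is given. In satellite-like cells 0 of 17 were called by either term (5 and 3). In mural-like cells 3 of 24 were higher in EOM and 0 lower, against 5.39% of all genes called in either direction: Cspg4 (0.86 ± 0.22, adjusted p = 0.00382), the kinase gene Fyn (0.72 ± 0.23, adjusted p = 0.0336) and Rnd2 (1.12 ± 0.34, adjusted p = 0.0236). By label 2 of 24 were higher, Flt1 (3.04 ± 0.27) and Kdr (2.38 ± 0.28), and 3 were lower, against 15.4% of all genes in either direction, so this count is near the background. In the shared pericyte-like cluster Flt1 was at 75.8, 52.8, 14.6 and 19.9 CPM and Kdr at 47.6, 16.9, 11.0 and 11.4 CPM. The higher DMD-labelled values of the whole class were thus not seen there in TA. In EOM these cluster values rest on 4 and 7 UMIs of Flt1 and 3 and 4 UMIs of Kdr, WT label first. The whole class in EOM held 9.64 and 266 CPM of Flt1 and 9.64 and 98.9 CPM of Kdr. The 3 lower genes were Cspg4, Farp1 (-0.68 ± 0.25, adjusted p = 0.0422), and Mical2, an actin-oxidising enzyme (-0.74 ± 0.26, adjusted p = 0.0375). In myofibre-like cells 1 of 11 was higher in EOM (Pak1) and 4 were lower (Flt1, Kdr, Itgb1 and Cfl1), against 13% of all genes in either direction, and 0 were called by label (3 at an unadjusted p under 0.05).

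By size alone, the pathway genes that moved most in endothelial-like cells were the VEGF receptor gene Kdr and Rnd1 and Rnd3, whose products bind plexins or their partners. Kdr was 3.09-fold lower (2.95 to 3.23) and Rnd3 4.08-fold higher (3.28 to 5.12) in TA-DMD than in TA-WT. In EOM, Rnd1 was higher by a log2 ratio of 0.96 and Rnd3 2.10-fold higher (1.37 to 3.27) with the DMD label. Between muscles, Vegfa was 2.83-fold and Vegfc 2.53-fold higher in EOM-WT than in TA-WT, and Rnd1 3.36-fold, Vegfa 2.91-fold and Flt1 2.32-fold higher in EOM-DMD than in TA-DMD. Vegfa was thus higher in EOM with either label. In mural-like cells the largest ratios were those of Flt1, Kdr and Cspg4, together with Rnd2 (4.04-fold higher in EOM-WT than in TA-WT) and Vegfa. The last was 1.82-fold lower (1.03 to 3.50) in EOM-DMD than in TA-DMD, and 2.56-fold higher (0.992 to 6.89) in EOM-WT than in TA-WT, from 12 and 9 UMIs. In satellite-like cells, Flt1 (36.6-fold, 6.39 to 1462, from 85 and 1 UMIs) and Pak1 (7.53-fold, 1.94 to 64.7, from 35 and 2 UMIs) were highest in TA-DMD over TA-WT, and Rhoa was 1.73-fold lower and Rnd3 1.64-fold higher in EOM-DMD than in EOM-WT. Vegfa was 3.43-fold higher and Gipc1, an adaptor of neuropilins, 2.41-fold lower in EOM-WT than in TA-WT, and Flt1 was 17.1-fold (8.31 to 40.9) and Kdr 53.2-fold lower (8.90 to 2163, from 1 and 33 UMIs) in EOM-DMD than in TA-DMD. Endothelial markers moved with Flt1 and Kdr in these cells: Cdh5 was at 106 CPM in TA-DMD and 1.61 CPM in EOM-DMD, and Fabp4 at 1917 and 32.9 CPM. Their part in these ratios was not tested.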

How the data were processed

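The authors deposited raw UMI counts per gene and barcode, one matrix a library. Per the file headers, Cell Ranger 4.0.0 wrote them; the submitters' processing notes name build rn6. For the annotation and the cell caller's settings, nothing is stated in the sources used here. The members, gene lists and tests were chosen with earlier results of these data known.

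Cells needed at least 500 UMIs, 200 genes and at most 20% mitochondrial UMIs. scrublet's automatic threshold marked 29 cells, too few to be a working call, so the cells with the highest scores were removed at 0.8% per 1000 cells (676 cells), a choice made after that result was seen. Clustering used scanpy 1.11.5 on log counts (10000 a cell, 2000 variable genes without the members, 30 components, 15 neighbours, Leiden resolution 1.0), which gave 33 clusters. Clusters were named from marker lists. The naming rule, made final with the clusters in view, asked for at least 3 markers at 2-fold and in 10% of cells, and no other class leading the top 10 genes.

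Counts were summed per class and library. The design `~ muscle + label` over the 4 libraries, 1 a group, was fitted with edgeR 4.0.16 quasi-likelihood tests (1 residual degree of freedom, genes with a mean of 20 CPM and 20 UMIs or more, TMM) in classes with 30 cells in every library, with Benjamini-Hochberg adjustment over all genes tested. P-values measure the spread between these libraries only, since no label says that they came from separate animals. The SE printed after an edgeR term was derived from the test: the absolute log2 term divided by the square root of its F statistic. Contrasts of 1 library against 1 have no test. They used log2(CPM + 10), a mean of 20 CPM and 30 cells in both libraries. Counts of 0 allow up to 3 UMIs. The fit was tested on simulated data with known changes. Members are named with their values if they had 100 CPM in a class, were called by a fit, or were at 2-fold in matching contrasts; the others named were chosen after their values were seen. DESeq2 1.42.0 and the alternatives listed in the closing section were run beside this. Fits with 1 library left out held the tested term alone, without the other term, and left 1 library on 1 side.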

Additional observations from a re-analysis of the deposited data

Results flagged for a closer look

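Sema6d, a membrane semaphorin, moved in opposite directions between the muscles in endothelial-like cells. EOM-WT was below TA-WT (log2 ratio -0.33), and EOM-DMD was above TA-DMD (0.66). Both counting intervals leave out a ratio of 1. The values were 99.5 CPM in TA-WT, 48.8 in TA-DMD, 77.2 in EOM-WT and 83.2 in EOM-DMD, each from 1 library, so the difference between the contrasts was not tested. In capillary endothelial-like cells alone they were 99.1, 56.5, 74.4 and 83.8 CPM in that order.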

How the results depend on the processing

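No paired analysis was possible because no label ties libraries to animals; the label fits compare libraries within a muscle. The muscle fits called 2 members. The count was 6 without the filter on low counts, 0 with DESeq2, 0 at Leiden resolution 0.5, 1 with the members among the variable genes, 1 without doublet removal, 0 within clusters shared by all libraries and 0 to 5 when 1 library was left out. The label fits called 2 members. The count was 7 without the filter, 1 with DESeq2, 1 with the label as sole term, 1 at Leiden 0.5, 0 at Leiden 2.0, 1 in cells of 1000 UMIs or more whose mitochondrial share was 10% or less, 0 with each library clustered alone, 1 within shared clusters and 0 to 4 with 1 library left out. In that strict setting 2 classes were left to fit, and the cause of the other shifts was not tested. No share of all genes called is given beside the counts of these alternative fits. Member and class pairs at 2-fold numbered 10 between the TA libraries, and 3 at a minimum of 50 CPM, 19 without a minimum, 6 centred on the median gene and 5 without erythroid-like cells. Between the EOM libraries they numbered 7, and 2 at 50 CPM, 4 centred, 4 after subtracting 10% free RNA, 12 with cells thinned to 1000 UMIs, 1 in the strict setting and 4 without doublet removal. Between EOM-WT and TA-WT they numbered 4, and 2 at 50 CPM and 2 in the strict setting. Between EOM-DMD and TA-DMD they numbered 21, and 10 at 50 CPM, 46 without a minimum and 11 in the strict setting. The count of members with 1 highest class was 14 of 15, and 10 to 14 under the alternatives, with unlike bases. The 10 were of 12 members in the strict setting, over 2 classes only, where 4253 of 6917 genes had 1 highest class. Without doublet removal it was 12 of 15 members and 3459 of 7721 genes over 4 classes. No result reversed under any alternative run. Of 407 values for single genes, 364 kept their direction and side of the threshold, 18 lost and 9 gained a call, and 16 moved. The fits within shared clusters and the counts without erythroid-like cells were chosen after seeing the data. With 1 residual degree of freedom, fits can miss changes of moderate size, and in the smallest classes a level of 20 CPM rests on few UMIs.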
